A study of Mus musculus with 17 samples.

Results

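The genes of DNA replication and mitosis were followed in quiescent NIH 3T3 cells, an established mouse fibroblast line, on 17 oligonucleotide arrays. The group has 33 genes, chosen by name: 16 of S phase and 17 of mitosis. Probe sets annotated to exactly 1 of these genes were found for 32 of the 12636 genes named in the series. Cyclin B1 (Ccnb1) has no such probe set in the tables and was not analysed here. The study asked which immediate early genes PDGF induces and which kinases they need, and the members are not immediate early genes.

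Cells entering the cycle from quiescence pass through G1 before they copy their DNA. The E2F factors, held in check by RB family proteins, drive genes for licensing origins and making nucleotides in late G1 and S phase. Genes of mitosis are switched on later, in G2, and in quiescent cells the MuvB complex with its RB family partners represses many of them. Both sets are therefore known as markers of proliferating cells, and a mitogen is known to raise them hours after it raises the immediate early genes.

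The cells formed 3 experiments with 1 array per condition, without repeats inside an experiment. In the Src experiment (8 arrays of 1 design, called the Src arrays) quiescent cells had vehicle, 2 µM SU6656 (an inhibitor of Src family kinases), 10 µM UO126 (a MEK1/2 inhibitor) or 7.5 µM LY294002 (a PI 3-kinase inhibitor), each without PDGF and with 25 ng/ml PDGF for 1 h. The other 9 arrays are of another design and hold the MEK experiment and the repeat of the Src experiment, called the MEK and repeat arrays. The MEK experiment had untreated quiescent cells, 10 µM UO126, 7.5 µM PD98059 (another MEK inhibitor), PDGF at 25 ng/ml, and PDGF with each of these inhibitors. Its PDGF time is not given in the sources used here. The repeat had vehicle, PDGF for 1 h, and PDGF with 2 µM SU6656 for 1 h. No array is labelled as a proliferating culture, so quiescent levels have no cycling reference here. The labels do not say whether any 2 arrays came from separate cultures. The p-values therefore rest on the spread among these arrays alone, which may be technical. Fewer cells with a transcript and less of it per cell cannot be told apart in such bulk RNA.

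Values are deposited signal (intensity, on a linear scale). Medians of single arrays lay between 174.7 and 198.4 for the Src arrays, and between 133.7 and 156.1 for the others. All 8 fibroblast markers passed the limit on low signal on both designs, with Vim lowest on the MEK and repeat arrays at a mean of 53.3, and 1 of them fell with PDGF there. Of the markers of other cell types, 2 of 3 leukocyte and 2 of 4 epithelial genes passed the limit on each design, 2 and 1 of 3 endothelial genes, and 2 and 1 of 3 muscle and fat genes. On the Src and on the other arrays, Ptprc of leukocytes had mean signals of 14.6 and 6.8, and Epcam of epithelium 11.1 and 12.1. The highest were Cd14 (leukocytes) with 314.4 and 1095.7, Krt8 (epithelium) with 228.0 on the Src arrays, Cdh1 (epithelium) with 341.4 on the others, Kdr (endothelium) with 188.3 and Des (muscle) with 237.2 on the Src arrays. On the MEK and repeat arrays the highest endothelial marker was Pecam1 with 66.4, and the highest muscle or fat marker Myod1 with 214.7. The part of other cell types in the results was not tested. Egr1, an immediate early transcription factor and the check that PDGF acted, went from 522.7 with vehicle to 5825.5 with PDGF in the Src experiment. Its log2 PDGF over basal was 3.28 ± 0.12 (SD, n = 3 experiments), beside 3.45 ± 0.65 for Junb and 4.43 ± 0.51 for Dusp6.

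Promoters of cell cycle genes are known for short motifs bound by E2F and, at the cell cycle genes homology region (CHR), by MuvB. RefSeq windows of 250 bases before the start (assembly GRCm38.p6) were held for 14 S phase and 14 mitosis members, Ccnb1 among the latter. The E2F letters TTTNNCGC, searched on both strands, were in the windows of 4 of 14 S phase and 1 of 14 mitosis members, against 4.94% of all 27025 genes with a window. The CHR letters TTTGAA were in 2 of 14 S phase and 6 of 14 mitosis members, against 18.3% of all. The letters CCAAT were in 9 of 14 and 12 of 14, against 37.5%. The CArG box, the motif of serum response factor, was in 1 of 14 and 0 of 14, against 1.62%. A gene with several windows counted once, and matches are letters only, not sites shown to be bound.

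The 200 bases before the start are printed for 5 members on which the results below turn, 5′ to 3′, with matches to any of these 4 motifs in capitals; neighbouring or overlapping matches run together. Mcm6 lies at chr1:128359706-128359905 on the minus strand, Mcm7 (the window with an E2F match, of its 2) at chr5:138171884-138172083 on the minus strand, Cdk1 at chr10:69352913-69353112 on the minus strand, Cdc20 at chr4:118437344-118437543 on the minus strand, and Plk1 at chr7:122159235-122159434 on the plus strand, all in GRCm38.p6.
Mcm6: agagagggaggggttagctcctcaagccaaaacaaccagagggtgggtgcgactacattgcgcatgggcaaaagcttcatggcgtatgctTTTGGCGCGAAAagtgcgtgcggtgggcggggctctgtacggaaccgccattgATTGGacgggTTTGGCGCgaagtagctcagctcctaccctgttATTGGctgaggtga
Mcm7: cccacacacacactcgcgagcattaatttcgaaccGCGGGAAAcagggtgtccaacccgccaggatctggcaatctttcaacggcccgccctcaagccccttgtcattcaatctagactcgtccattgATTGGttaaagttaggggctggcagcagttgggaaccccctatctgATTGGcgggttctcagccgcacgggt
Cdk1: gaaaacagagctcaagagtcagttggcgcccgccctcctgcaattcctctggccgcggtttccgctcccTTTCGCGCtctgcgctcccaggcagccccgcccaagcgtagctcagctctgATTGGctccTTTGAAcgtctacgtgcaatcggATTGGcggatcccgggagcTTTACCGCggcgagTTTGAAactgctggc
Cdc20: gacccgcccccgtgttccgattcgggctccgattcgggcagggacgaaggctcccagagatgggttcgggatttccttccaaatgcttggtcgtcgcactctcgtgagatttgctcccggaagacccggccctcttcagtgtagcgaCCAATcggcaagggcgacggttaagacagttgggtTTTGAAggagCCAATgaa
Plk1: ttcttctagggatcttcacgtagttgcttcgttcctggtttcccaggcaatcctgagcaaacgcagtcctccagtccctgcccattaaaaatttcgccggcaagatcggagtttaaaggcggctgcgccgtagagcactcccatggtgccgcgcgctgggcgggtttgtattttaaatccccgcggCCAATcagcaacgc
The Mcm6 stretch holds 3 E2F matches, counting both strands, and 2 CCAAT matches. That of Mcm7 holds 1 E2F and 2 CCAAT matches. Cdk1 carries both kinds, with 2 E2F and 2 CHR matches beside 2 CCAAT matches. Cdc20 has 1 CHR and 2 CCAAT matches, and Plk1 has 1 CCAAT match.

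The low limit left out the lowest 30% of probe sets of a table by mean log2 value over all its arrays, so it describes the arrays of a design together and not quiescent cells alone. On the Src arrays, 13 of 16 S phase genes passed it. Those under it were Tyms (thymidylate synthase), Cdc6 (a loader of the MCM helicase) and Ccne2 (cyclin E2). Among mitosis genes 13 of 16 passed there, all but Ccnb2 (cyclin B2) and the spindle checkpoint kinases Bub1 and Bub1b. On the MEK and repeat arrays, 13 of 15 S phase genes passed, all but Mcm6 and Ccne2, and 15 of 15 mitosis genes passed. Tyms and Bub1b have no single-gene probe set there. A member could be under the limit in 1 design and not in the other: Ccnb2 had a signal of 21.5 on the vehicle array of the Src experiment and, with another probe set, 638.2 on the untreated array of the MEK experiment. Brightness depends on the probes, so it does not order transcripts by abundance and was not compared between genes.

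On the vehicle array of the Src experiment the 16 S phase genes had signals of 9.3 to 2057.0, median 225.6, and the 16 mitosis genes 21.5 to 886.2, median 194.8. On the untreated array of the MEK experiment the S phase median was 452.0 and the mitosis median 220.1. On the vehicle array of the repeat they were 441.4 and 350.8. These ranges describe the probe sets used and rank no gene or class.

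Among S phase genes, Pcna, the sliding clamp of DNA polymerase, had 2057.0 on the vehicle and 2379.9 on the PDGF array of the Src experiment, and 2201.9 to 2429.2 on the other 6 arrays. In the MEK experiment it had 1478.2 untreated and 1907.5 with PDGF, and 1068.9 and 991.1 in the repeat. Its PDGF over basal was thus above 0 in 2 experiments and below 0 in the third. Over all 4 pairs of the Src arrays Pcna had a PDGF effect of 0.050, with a 95% interval from −0.114 to 0.214, and over the 4 pairs of the MEK and repeat arrays 0.18, from −0.071 to 0.424.

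No S phase or mitosis member was called for PDGF at its brightest probe set. The PDGF effect is the mean log2 difference within 4 pairs (PDGF present against absent) on each array design, fitted with limma, and called at an adjusted p under 0.05 over all probe sets. On the Src arrays, 0 of 13 S phase and 0 of 13 mitosis genes were called, where 3.3% of all 9221 genes tested were. At an unadjusted p under 0.05 there were 1 (Mcm7) and 0, against 16.8% of all genes. On the MEK and repeat arrays, 0 of 13 and 0 of 15 were called, where 1.85% of 6364 genes were. Unadjusted, there were 0 and 3 (Birc5, Ccna2 and Cdc20), against 13.9%. A 2-fold change either way lay outside the 95% interval of 12 of 13 S phase genes (all but Cdc45) and 12 of 13 mitosis genes (all but Cenpa) on the Src arrays. On the other design this held for 13 of 13 and for 14 of 15 (all but Aurkb). These intervals are per gene and are not adjusted for their number.

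**Figure D1:**
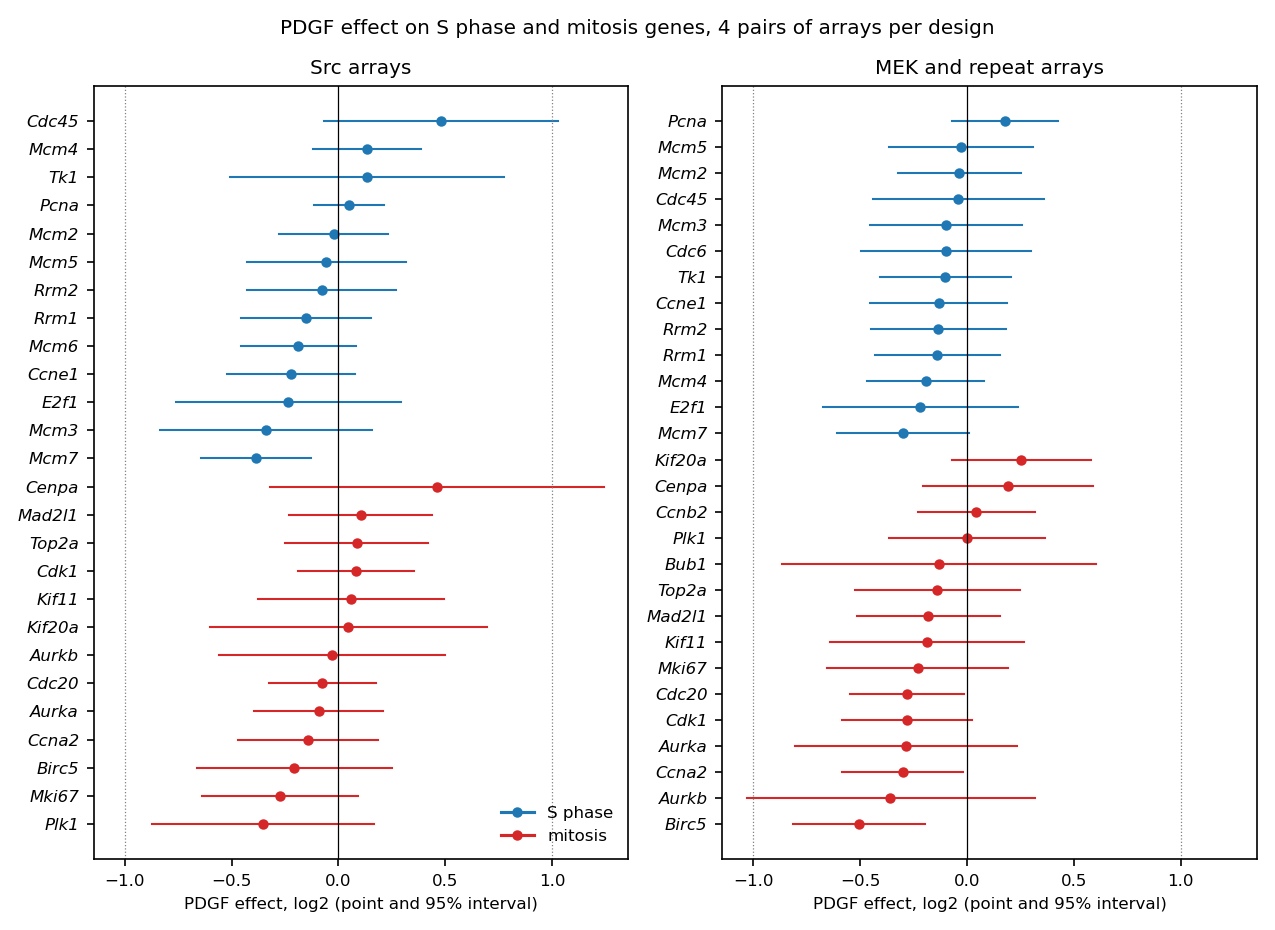
Points are the log2 PDGF effect and bars its 95% interval for each member that passed the low limit, on the Src arrays (left) and the MEK and repeat arrays (right), S phase genes in blue and mitosis genes in red; dotted lines mark a 2-fold change. On the Src arrays, 9 of 13 S phase and 7 of 13 mitosis points lie below 0. On the MEK and repeat arrays, 12 of 13 S phase and 12 of 15 mitosis points do. Most intervals cross 0.

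The medians lay slightly below 0. For the Src arrays the median PDGF effect was −0.079 in S phase and −0.030 in mitosis genes, against −0.045 over all genes. For the MEK and repeat arrays it was −0.101 and −0.187, against −0.037. There 12 of 13 S phase and 12 of 15 mitosis genes lay below 0, as did 3628 of the 6364 genes tested. On the Src arrays 9 of 13 S phase and 7 of 13 mitosis genes did, and 5559 of the 9221 genes tested. For comparison, the PDGF effects that were called had a median size of 0.70 on the Src and 1.25 on the MEK and repeat arrays.

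Mcm7, a subunit of the MCM2-7 helicase that unwinds DNA at the fork, was the exception among single probe sets. Probe set 1416031_s_at had 435.0, 448.6, 401.6 and 386.7 without PDGF in the vehicle, LY294002, SU6656 and UO126 pairs. With PDGF it had 259.5, 350.3, 218.8 and 212.2. Every array with PDGF was below every array without it, a pattern not counted over all probe sets. The probe set fell by 0.57 on the log2 scale (SE 0.125, adjusted p = 0.0402), on arrays where 0.814% of probe sets fell. Of the members' probe sets, 25 for S phase and 16 for mitosis genes passed the limit there, and it was the one called.

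The other Mcm7 probe sets did not pass the threshold. The brightest, 1438320_s_at, had a PDGF effect of −0.39 (SE 0.115, adjusted p = 0.12), 1416030_a_at −0.45 (SE 0.14) and 1439269_x_at 0.17 (SE 0.265). On the MEK and repeat arrays Mcm7 had 358.2 and 264.0 without and with PDGF in untreated cells, 343.2 and 235.0 with UO126, and 433.1 and 372.9 with PD98059. In the repeat it had 535.9 and 475.6. The signal was lower with PDGF in all 4 pairs there, with an effect of −0.30 (SE 0.139, adjusted p = 0.394). Names ending in _s_at or _x_at mark probe sets that can match several transcripts. The call for 1416031_s_at was lost without the filter, without the variance trend, without the pair as a block (adjusted p = 0.0941) and without any 1 array, which also drops its pair (adjusted p = 0.0584 to 0.158).

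**Figure D2:**
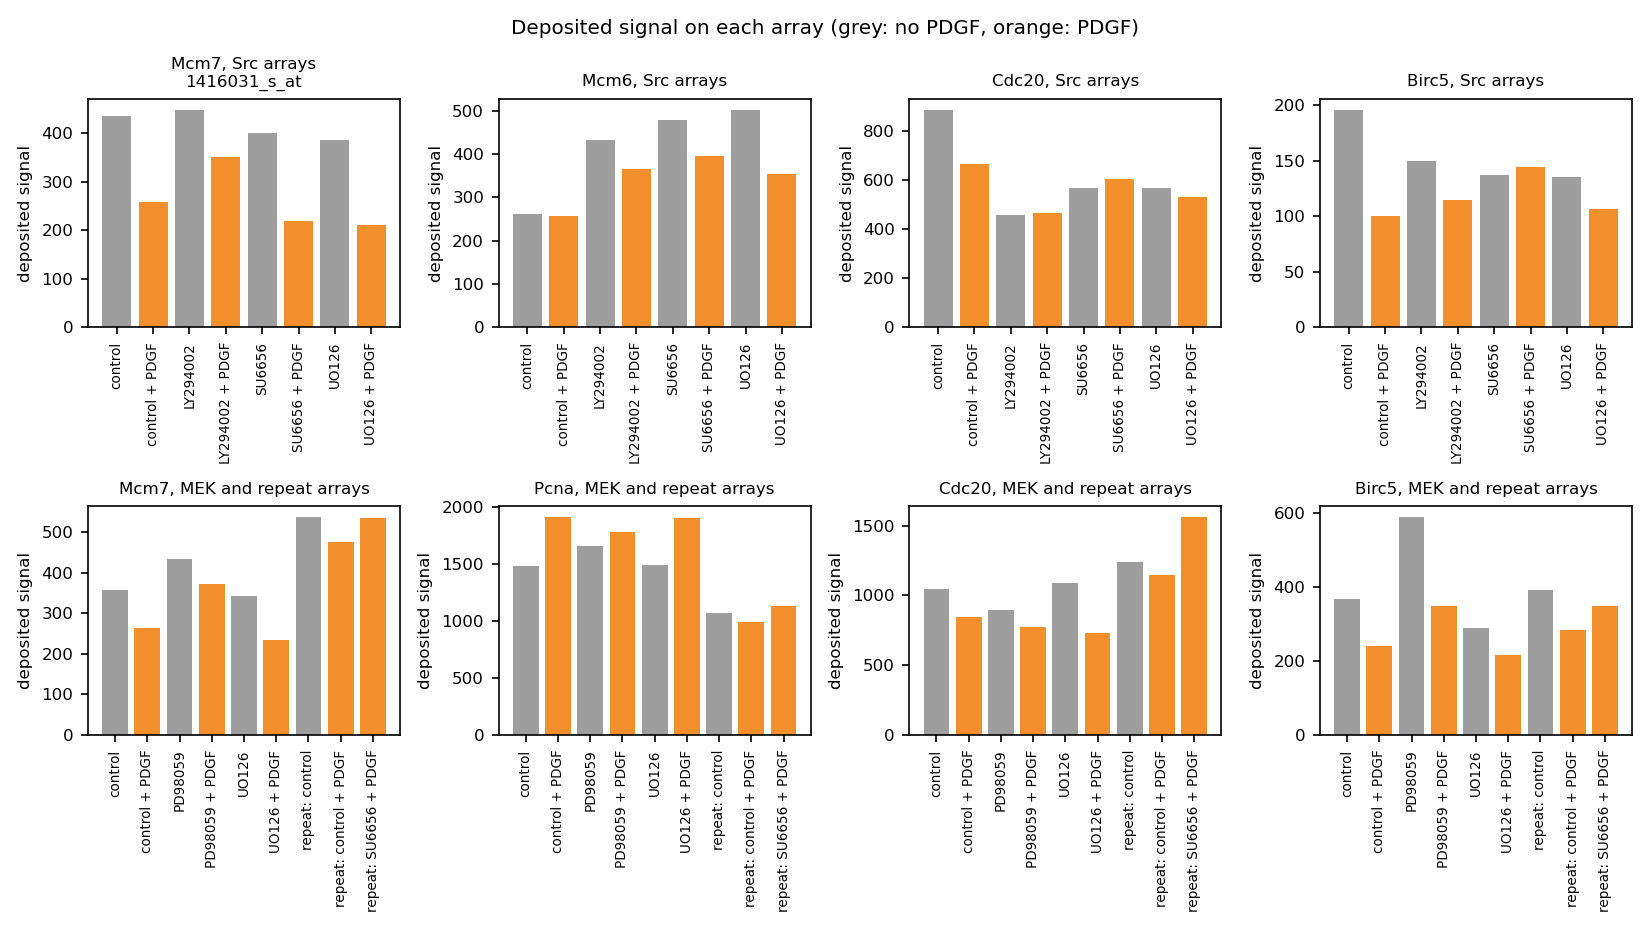
Bars are the deposited signal on each array for 4 genes on the Src arrays (top) and 4 on the MEK and repeat arrays (bottom), grey without and orange with PDGF; control means untreated in the MEK experiment and vehicle elsewhere. For Mcm7 probe set 1416031_s_at all 4 PDGF bars (212.2 to 350.3) are below all 4 without PDGF (386.7 to 448.6). How many of all probe sets show this was not counted.

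The other S phase genes showed small differences of mixed sign. The helicase subunits Mcm2, Mcm4, Mcm5 and Mcm6 had PDGF effects of −0.19 to 0.13 on the Src arrays. Mcm3 had −0.34 at its brightest probe set there, while its 5 probe sets ranged from −0.37 to 0.38. Rrm1 and Rrm2, the subunits of ribonucleotide reductase, had −0.15 and −0.079 on the Src arrays, and −0.14 and −0.13 on the others. Tk1 (thymidine kinase) had 0.13 and −0.10, with 0.48 at a dimmer probe set of the second design. Cdc45, a partner of the MCM helicase, had 0.48 (SE 0.244) and −0.040, and Cdc6 −0.097 on the MEK and repeat arrays. Cyclin E1 (Ccne1), which activates CDK2 at the start of S phase, had −0.22 and −0.13, and E2f1 itself −0.23 and −0.22. None of these passed the threshold.

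PDGF over basal in each experiment, without inhibitors, uses pairs of arrays that the fits above also use and has no test. The limit was passed on both designs by 5530 genes, of which 1.57% had a rise of 1.5-fold or more with PDGF in each of the 3 experiments and 0.235% a drop of that size. Among the 12 S phase and 13 mitosis members the numbers were 0 up and 0 down. Below 0 in all 3 experiments were 1 of 12 S phase and 6 of 13 mitosis members, where 21.4% of all genes were. Above 0 in all 3 were 0 and 0, where 13.1% of all genes were. The medians of the 3-experiment means were −0.102 for S phase and −0.147 for mitosis members, against −0.049 for all genes.

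The S phase member below 0 in all 3 was Mcm7, at −0.21 ± 0.20 (SD, n = 3). Ccne2 was also lower with PDGF in each, at −0.47 ± 0.40, but lay under the low limit on both designs. Its signals were 63.2 and 55.1 in the Src experiment, 12.7 and 4.0 in the MEK experiment, and 24.1 and 5.8 in the repeat, without and with PDGF.

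Birc5 (survivin, a subunit of the chromosomal passenger complex) was the lowest of the mitosis members. It had 195.6 without and 99.8 with PDGF in the Src experiment, 366.4 and 241.8 in the MEK experiment, and 391.9 and 283.5 in the repeat. Its PDGF over basal was −0.56 ± 0.14 (SD, n = 3). In the fit over 4 pairs its effect was −0.51 (SE 0.139, adjusted p = 0.147) on the MEK and repeat arrays, and −0.21 (SE 0.203) on the Src arrays. In the MEK experiment it had 289.2 and 216.6 with UO126, and 588.1 and 349.6 with PD98059. In the Src experiment it had 135.2 and 106.5 with UO126, 149.9 and 114.8 with LY294002, and 137.2 and 143.8 with SU6656. The SU6656 pair was thus the one of 8 pairs, over both designs, in which PDGF went with a higher signal.

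Aurka (Aurora A, the centrosomal and spindle kinase) had 224.0 and 187.7 in the Src experiment, 127.6 and 79.5 in the MEK experiment, and 139.7 and 81.6 in the repeat. Its mean was −0.49 ± 0.31 (SD, n = 3). Plk1 (Polo-like kinase 1, which drives mitotic entry) had 204.0 and 104.7, 220.1 and 169.9, and 390.3 and 360.7 in the same order. Its mean was −0.38 ± 0.30. The experiments differed in size, from −0.14 to −0.72 for Aurka and from −0.076 to −0.68 for Plk1. In the fits Aurka had −0.093 and −0.29, and Plk1 −0.35 and −0.001, on the Src and on the MEK and repeat arrays.

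The remaining members below 0 in all 3 experiments were Ccna2 (cyclin A2, of S phase and mitotic entry) at −0.33 ± 0.12, Mad2l1 (a spindle checkpoint protein) at −0.30 ± 0.23 and Cdc20 (an activator of the anaphase-promoting complex) at −0.25 ± 0.15. Ccna2 had 292.0 and 217.2 in the Src experiment, 532.0 and 461.7 in the MEK experiment, and 553.4 and 389.0 in the repeat. Cdc20 had 886.2 and 665.1 in the Src experiment, 1042.5 and 844.9 in the MEK experiment, and 1235.5 and 1144.0 in the repeat. Mad2l1 had 305.1 and 248.0, 619.6 and 575.2, and 414.6 and 271.8. With PDGF all 3 genes were lower in each of these pairs. In the fit of the Src arrays, which adds the 3 inhibitor pairs, Mad2l1 had a PDGF effect of 0.10, and Cdc20 −0.075 with 0.18 at another of its probe sets.

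Ccnb2 was higher with PDGF in each experiment but was under the low limit on the Src arrays, where it had 21.5 and 108.1. With the brighter probe set of the second design it had 638.2 and 687.6, and 472.9 and 521.3, a PDGF effect of 0.043. The other mitosis genes differed in sign between experiments. Cdk1, the kinase of mitotic entry, had a mean of −0.14 ± 0.16, Top2a (topoisomerase IIα) −0.013 ± 0.18, Mki67 (the Ki-67 proliferation antigen) −0.03 ± 0.22 and Kif11 (the spindle motor Eg5) −0.15 ± 0.38. Aurkb (Aurora B) had −0.12 ± 0.40, Kif20a (a kinesin of cytokinesis) 0.001 ± 0.41, Cenpa (the centromeric histone H3) 0.25 ± 0.31 and Bub1 −0.21 ± 0.69. For each of these the SD was larger than the mean.

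**Figure D3:**
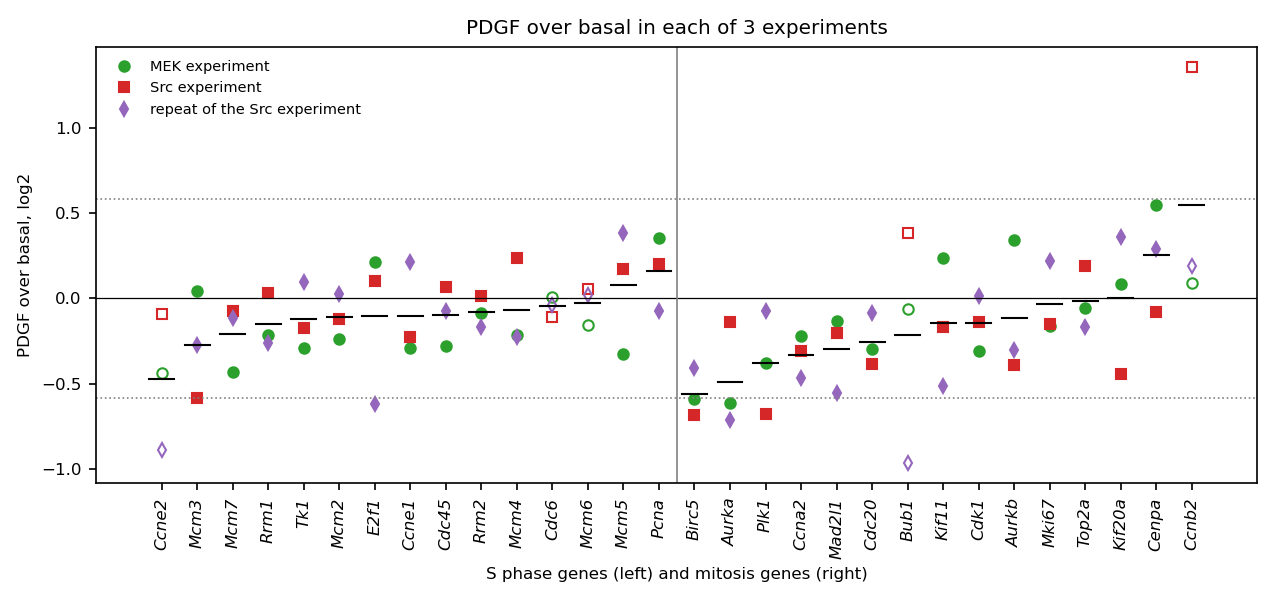
Symbols are log2 PDGF over basal of 30 members in the MEK experiment, the Src experiment and its repeat, black lines their mean, open symbols genes under the low limit on either design, and dotted lines a 1.5-fold change; S phase genes are left and mitosis genes right of the vertical line. Birc5 lies at −0.41 to −0.68 in the 3 experiments, while most other members have symbols near or on both sides of 0.

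Wider lists of the same pathways were read against the same background, 3.3% of all genes called on the Src and 1.85% on the MEK and repeat arrays, and 16.8% and 13.9% unadjusted. Of 50 other replication genes, 40 passed the limit on the Src and 37 on the MEK and repeat arrays. For PDGF 0 and 0 were called, and their median effects were −0.052 and −0.106. At an unadjusted p under 0.05 there were 6 and 3. Of 45 other mitosis genes, 30 passed on each design, and 1 was called on the Src arrays and 0 on the others, with medians of −0.005 and −0.099. Unadjusted, there were 5 and 3. The one called was Anln (anillin, a scaffold of the cytokinetic ring). It had 190.4 to 260.4 without PDGF and 337.2 to 367.1 with it on the Src arrays, and rose by 0.61 (SE 0.136, adjusted p = 0.045). On the MEK and repeat arrays its effect was 0.11 (SE 0.127). The call was lost without any 1 array (adjusted p = 0.0908 to 0.166), without the filter and without the variance trend.

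Nusap1 (a spindle microtubule protein) was the one gene of these lists at least 1.5-fold down with PDGF in all 3 experiments, at −0.72 ± 0.08 (SD, n = 3). It had 125.3 and 63.1 in the Src experiment, 210.9 and 125.5 in the MEK experiment, and 107.3 and 57.9 in the repeat. In the fits it had −0.71 (SE 0.276, adjusted p = 0.236) and −0.50 (SE 0.205, adjusted p = 0.332), so it was not called. Of the E2F, RB and MuvB regulators 10 of 19 listed passed on each design, 0 were called and the medians were 0.071 and 0.043. At an unadjusted p under 0.05 there were 0 and 0.

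The inhibitors called no member either. On the Src arrays each inhibitor effect is the log2 difference of 2 arrays from the 2 vehicle arrays, averaged over cells without and with PDGF, so the 3 effects share their controls. For LY294002, 0 of 13 S phase and 0 of 13 mitosis genes were called, where 0.488% of genes were. Unadjusted, there were 4 and 1, against 14.1% of all genes. For SU6656 there were 0 and 0, where 0.0976% of genes were called. Unadjusted, there were 1 and 1, against 7.79%. For UO126 there were 0 and 0, where 0.0542% of genes were called. Unadjusted, there were 1 and 3, against 9.25%.

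Median effects of LY294002 were −0.204 for S phase and −0.082 for mitosis genes, against 0.010 for all genes. Those of SU6656 were 0.030 and −0.013, against 0.020, and those of UO126 0.062 and −0.045, against 0.017. Leaving out 1 array changed the sign of 3 of these medians: the mitosis median ranged from −0.299 to 0.023 for LY294002 and from −0.369 to 0.053 for UO126, and the S phase median from −0.076 to 0.081 for SU6656. The precision was lower than for PDGF: the median half-width of the 95% interval was 0.43 for S phase and 0.52 for mitosis genes, against 0.30 and 0.37 for PDGF. With LY294002 the interval excluded a 2-fold change for 8 of 13 S phase genes (not Ccne1, Cdc45, Mcm2, Mcm7 and Tk1) and 10 of 13 mitosis genes (not Cdc20, Cenpa and Kif20a).

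Of the members with low p for LY294002, 4 are described here and Mcm6 after them, all chosen after their values were seen. Mcm7 at its brightest probe set had 509.8 and 467.3 on the vehicle arrays without and with PDGF, and 1020.3 and 768.1 with LY294002. Its effect was 0.81 (SE 0.162, adjusted p = 0.073), with 0.82 at 1439269_x_at and 0.21 at the other 2 probe sets. Cdc20 had 886.2 and 665.1 with vehicle, and 458.2 and 464.2 with LY294002, an effect of −0.70 (SE 0.156, adjusted p = 0.0949). At another probe set it was −0.24. Mcm2 had 642.7 and 573.3, and 369.0 and 372.0, an effect of −0.66 (SE 0.161, adjusted p = 0.119), and at its other probe set −0.35 (SE 0.195, adjusted p = 0.502). Ccne1 had 324.8 and 259.4, and 205.4 and 150.6, an effect of −0.61 (SE 0.188, adjusted p = 0.203). At the brightest probe sets of these 4 genes the LY294002 arrays did not overlap the vehicle arrays. How many of all genes show this was not counted. At Mcm7 probe set 1416031_s_at they overlapped, with 435.0 and 259.5 on the vehicle arrays and 448.6 and 350.3 with LY294002. They also overlapped at 1416030_a_at.

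Mcm6 had 261.4 and 257.3 on the vehicle arrays without and with PDGF. With an inhibitor it had 478.2 and 394.8 (SU6656), 502.3 and 354.7 (UO126), and 432.2 and 366.4 (LY294002). All 6 inhibitor arrays were thus above both vehicle arrays, a pattern not counted over all genes, and the 3 comparisons share those 2 arrays. The effects were 0.69 (SE 0.169, adjusted p = 0.371), 0.67 (SE 0.169, adjusted p = 0.311) and 0.56 (SE 0.169, adjusted p = 0.193). Its other probe set on the Src arrays, under the low limit and not tested, had 67.5 and 63.6 with vehicle and 38.9 to 63.0 with an inhibitor, so all 6 inhibitor arrays were below both vehicle arrays there. On the MEK and repeat arrays Mcm6 was under the low limit, so it was not tested there. In the MEK experiment its signals were 40.9 untreated, 33.1 with UO126 and 10.7 with PD98059, and under PDGF 35.9, 2.4 and 28.7. In the repeat they were 28.3 with PDGF and 5.8 with PDGF and SU6656. Each inhibitor array was thus below its control of the same PDGF state.

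**Figure D4:**
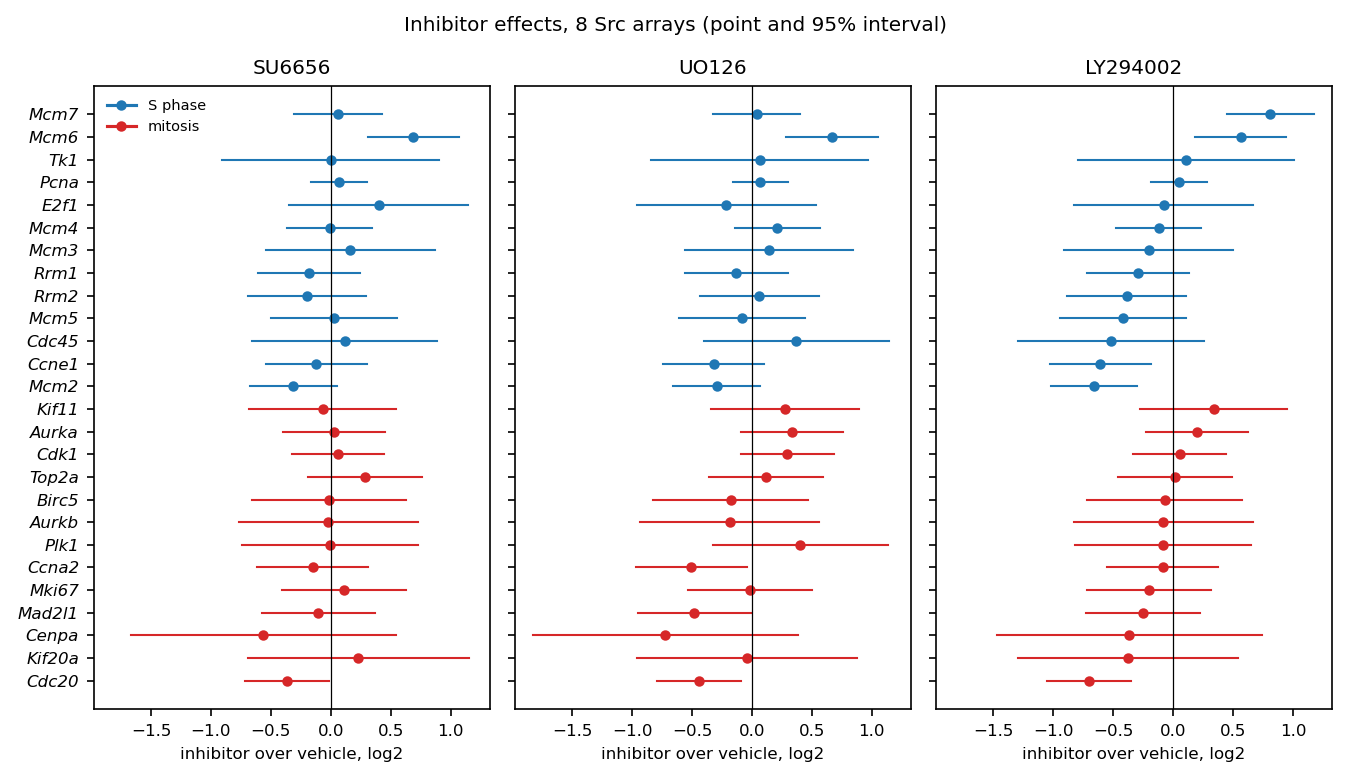
Points are the log2 effect of SU6656, UO126 and LY294002 over vehicle on the Src arrays and bars the 95% interval, for 13 S phase (blue) and 13 mitosis genes (red), in the order of their LY294002 effect. Mcm6 lies above 0 with each inhibitor (0.69, 0.67 and 0.56) and Cdc20 below 0 (−0.37, −0.44 and −0.70), and the vehicle arrays are shared. At another Cdc20 probe set, not drawn, the effects were 0.035, −0.301 and −0.235 in the same order.

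In the MEK experiment the arrays with UO126 and with PD98059 stand for MEK inhibition, 2 in each PDGF state. The fitted control levels also draw on the vehicle and PDGF arrays of the repeat, through a shared PDGF term. An effect can thus differ in sign from the signals: Bub1 had 61.9 under PDGF, 57.3 with UO126 and 48.7 with PD98059 added. Its effect under PDGF was 0.162. Without PDGF 0 of 13 S phase and 0 of 15 mitosis genes were called, where 0.0157% of genes were. Unadjusted, there were 1 and 0, against 6.52%. Under PDGF there were 0 and 0, where 0.0% of genes were called. Unadjusted, there were 1 and 2, against 7.07%. The interaction of MEK inhibition with PDGF called 0 and 0, where 0.0% of genes were called. Unadjusted, there were 0 and 0, against 4.70%. Median effects were 0.070 for S phase and −0.033 for mitosis genes without PDGF, and 0.034 and −0.101 under PDGF. Leaving out 1 array, the mitosis median without PDGF ranged from −0.186 to 0.04.

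Rrm2 had 225.7 untreated, 349.5 with UO126 and 331.9 with PD98059, and under PDGF 217.0, 277.9 and 323.2. Its effects were 0.515 (SE 0.223, adjusted p = 0.67) and 0.50 (SE 0.223, adjusted p = 0.687). The arrays with an inhibitor were above those without one in both states, a pattern not counted over all genes. In the Src experiment the UO126 effect on Rrm2 was 0.062 (SE 0.22, adjusted p = 0.96). Its log2 ratios there were 0.269 without and −0.145 under PDGF. In the MEK experiment Aurkb had the widest spread, with 259.7 under PDGF, 51.3 with UO126 added and 236.6 with PD98059 added. Its effect of −0.80 (SE 0.502, adjusted p = 0.798) thus rests on the UO126 array.

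SU6656 under PDGF was measured in 2 experiments, against the PDGF array of each. Of 13 mitosis genes, 9 were above 0 in both experiments, where 27.7% of 5530 genes were, and 0 were below 0 in both, where 23.1% were. The 9 were Aurka, Aurkb, Birc5, Cdk1, Kif11, Kif20a, Mad2l1, Plk1 and Top2a. The medians of all 13 were 0.21 and 0.40, against 0.011 and 0.019 for all genes. For S phase genes the numbers were 3 above 0 (Cdc45, E2f1 and Pcna) and 2 below (Ccne1 and Tk1) of 12, with medians of −0.043 and 0.11. None of these ratios has a test. No member was at least 1.5-fold higher in both, where 0.38% of all genes were. Of the other mitosis genes 30 passed on each design, with medians of 0.027 and 0.186. These were not the same 30 genes, since 22 passed on both, so the 2 medians are not paired. In the fit of the Src arrays, SU6656 called 0 mitosis members, with a median of −0.013.

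Plk1 had 104.7 with PDGF and 173.3 with PDGF and SU6656 in the Src experiment, and 360.7 and 564.1 in the repeat. Birc5 had 99.8 and 143.8, and 283.5 and 349.1. Aurka had 187.7 and 186.4, and 81.6 and 124.1. The Src ratios of Aurka (0.009) and Mad2l1 (0.001) were above 0 only after normalisation, since the deposited signals were slightly lower with SU6656, so these 2 genes were level in that experiment. The PDGF arrays serving as controls here are those that gave the low mitosis values in PDGF over basal, so both comparisons share them. Without PDGF, SU6656 had a mitosis median of −0.25 over vehicle in the Src experiment, and Plk1 had 204.0 with vehicle and 124.7 with SU6656. The repeat has no array of SU6656 without PDGF.

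UO126 was also measured in 2 experiments, the MEK and the Src experiment, and these ratios have no test. Without PDGF, 4 of 13 mitosis genes were above 0 in both and 3 below, where 25.4% of 5530 genes were above and 24.7% below. Of 12 S phase genes 3 were above and 1 below. Under PDGF, 4 mitosis genes were above 0 in both (Aurka, Cdk1, Kif20a and Plk1) and 6 below (Aurkb, Ccna2, Cdc20, Cenpa, Mad2l1 and Top2a), where 29.7% of genes were above and 24.6% below. Of the S phase genes 2 were above (Cdc45 and Mcm4) and 5 below (Ccne1, E2f1, Mcm5, Mcm7 and Pcna). Medians under PDGF were −0.121 in the MEK and −0.072 in the Src experiment for mitosis genes, and −0.039 and −0.131 for S phase genes, against 0.027 and 0.009 for all. No member was 1.5-fold or more to 1 side in both experiments in either PDGF state. Of all genes 0.524% were up and 0.506% down by that size without PDGF, and 0.434% and 0.633% under PDGF. In the Src experiment the ratios under PDGF share the PDGF array with those of SU6656.

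**Figure D5:**
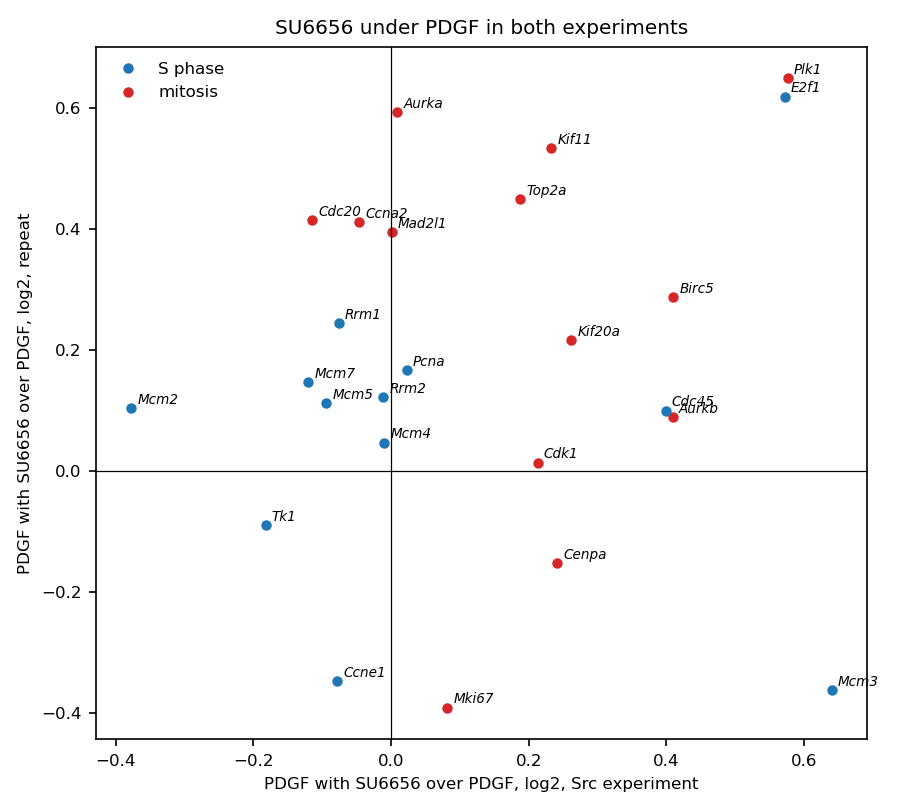
Each point is a member, with the log2 ratio of PDGF with SU6656 to PDGF in the Src experiment on the x axis and in its repeat on the y axis, S phase genes in blue and mitosis genes in red. Of 13 mitosis genes 9 lie above 0 on both axes, with Aurka (0.009) and Mad2l1 (0.001) on the border in the Src experiment.

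Levels of the members also differed between the MEK experiment and the repeat, a comparison added after the values were seen. The MEK experiment used untreated and the repeat vehicle-treated controls, and experiment, control and any batch cannot be told apart. In the fit this difference rests on the control and PDGF arrays of each experiment, because other terms take up the inhibitor arrays. The ranges and medians below cover all arrays of an experiment, so they do not give the fitted effects. The fit called 6 of 28 members, where 17.2% of all genes were called, so the members' share was near the background. For 8 of 28 genes every array of the repeat was above every array of the MEK experiment, where 13.3% of all genes were, and for 5 every array was below, where 15.3% were. Fibroblast markers differed too: 5 of 8 were called higher in the repeat and 0 lower, with a median of 0.518, and 1 of the 2 epithelial markers that passed was called lower. Their part in the members' differences was not tested.

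Pcna had 1068.9, 991.1 and 1131.2 on the arrays of the repeat (vehicle, PDGF, PDGF with SU6656). On the 6 arrays of the MEK experiment it had 1478.2 to 1907.5, median 1721.2. The experiments did not overlap, and Pcna was lower in the repeat (−0.70, SE 0.163, adjusted p = 0.0178). E2f1 had 110.8, 70.3 and 110.1 in the repeat and 120.0 to 217.1, median 156.9, in the MEK experiment (−1.12, SE 0.288, adjusted p = 0.0259). The untreated and PDGF arrays of the MEK experiment had 180.0 and 217.1 for E2f1. Mcm3 had 356.9, 285.6 and 216.0, against 361.0 to 560.8, median 491.2 (−0.78, SE 0.232, adjusted p = 0.045). Mad2l1 had 414.6, 271.8 and 360.0, against 420.7 to 619.6, median 518.2 (−0.88, SE 0.203, adjusted p = 0.0166). These 4 genes were lower on every array of the repeat, by a narrow gap for Mcm3 and Mad2l1.

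Cdk1 and Plk1 were higher in the repeat. Cdk1 had 757.5, 742.9 and 769.3 there, and 385.3 to 609.1, median 490.1, in the MEK experiment (0.63, SE 0.187, adjusted p = 0.0459). Plk1 had 390.3, 360.7 and 564.1, against 169.9 to 281.0, median 238.8 (0.80, SE 0.207, adjusted p = 0.026). Neither gene overlapped between the experiments at these probe sets.

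The direction depended on the probe set for Plk1 and E2f1. Plk1 has 2 dimmer probe sets. One, 161292_f_at, had 90.1, 50.7 and 81.0 in the repeat and 69.3 to 266.7, median 110.2, in the MEK experiment, so the experiments overlapped. It was called the other way (−1.28, SE 0.347, adjusted p = 0.0316), with 266.7 untreated and 120.5 with PDGF in the MEK experiment. The other, 93099_f_at, had 153.1, 121.4 and 245.8 against 14.3 to 86.8, median 38.2, and was not called (1.45, SE 0.561, adjusted p = 0.102). E2f1 at its dimmer probe set had 0.59 (SE 0.474, adjusted p = 0.432), and Mcm3 at its other one −0.28 (SE 0.252). Without the PDGF array of the MEK experiment or that of the repeat, 0 members were called. Without the untreated array there were 2, and without the vehicle array of the repeat 3.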

How the data were processed

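RNA of 17 samples was hybridised to 2 oligonucleotide array designs. The authors deposited 1 intensity per probe set and array, linear, with a trimmed mean of 500.2 to 500.4 on every array. Software and genome build: not given in the sources used here. Genes came from the platform annotation, with symbols updated through Entrez IDs against RefSeq (GRCm38.p6), and 0 value columns were unused.

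Control probe sets were removed. Each table was quantile normalised, and the 20th percentile of signal was added before taking log2 (36.28 for the Src arrays, 21.19 for the others), which understates fold changes at low signal. Probe sets in the bottom 30% by mean log2 value were dropped, leaving 15838 and 8695. A gene is its brightest probe set. Tests used limma 3.58.1 (R 4.3.3; lmFit, eBayes with trend), with Benjamini-Hochberg adjustment over each table, at a threshold of 0.05 and 3 residual degrees of freedom. With 1 array per condition, the residual spread also holds differences between pairs or inhibitors. The PDGF fit has the pair as a block, because partners come from 1 experiment with 1 inhibitor by design. The inhibitor fit has PDGF as a term, and the MEK fit PDGF, experiment, SU6656 and the interaction. The PDGF with SU6656 array of the repeat has no partner and is outside the PDGF fit. Scripts were tested on simulated data.

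The members and lists were chosen with earlier results of these data known. All 33 members are named. By rule, values by array are given for members past the threshold and, in each class, for the 3 lowest and 3 highest mean PDGF over basal among those of 1 sign in all 3 experiments. Others named with values were chosen after these were seen. Alternatives were median scaling, a pseudocount of 1, no filter, no trend, no block, no interaction, probe sets of certain name suffixes left out, and each array or experiment left out. These suffixes were _s_at, _x_at, _f_at, _g_at, _r_at and _i_at. The number of arrays limits the precision.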

Additional observations from a re-analysis of the deposited data

How the results depend on the processing

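Counts of called members were recomputed under 126 alternatives, of which 113 gave 0. The other 13 all concern the repeat against the MEK experiment. The 6 calls there became 2 without the filter and 3 without the variance trend. They became 3 without probe sets of the listed suffixes, and 0 to 7 without 1 array. Of the 6, Mcm3 (160496_s_at), E2f1 (161427_f_at) and Plk1 (101350_g_at) were called at probe sets of these suffixes. Leaving such probe sets out also turned E2f1 to 0.585, since its brightest remaining probe set is another one. With a pseudocount of 1 the mitosis medians became −0.26 (PDGF, MEK and repeat arrays), −0.106 (MEK inhibition under PDGF) and −0.183 (mean PDGF over basal), and the S phase median for SU6656 0.037. Without probe sets of the listed suffixes they became −0.209, −0.16 and, for SU6656, 0.0. Without the filter the S phase medians were 0.046 (SU6656) and 0.01 (MEK inhibition without PDGF). Without the interaction the mitosis median for MEK inhibition was −0.125 for both PDGF states, and with median scaling it was −0.089 under PDGF. Median scaling also gave 2 S phase members below 0 in every experiment. Leaving out 1 array, mitosis medians ranged from −0.197 to −0.127 (PDGF, MEK and repeat arrays), −0.369 to 0.053 (UO126), −0.299 to 0.023 (LY294002), −0.186 to 0.04 (MEK inhibition without PDGF) and −0.163 to −0.027 (under PDGF). S phase medians ranged from −0.076 to 0.081 (SU6656) and 0.026 to 0.189 (MEK inhibition without PDGF). The sign of 4 of these 7 medians changed with the array left out: mitosis for UO126, LY294002 and MEK inhibition without PDGF, and S phase for SU6656. Leaving out 1 experiment gave 0 to 1 members at least 1.5-fold down in the others, 2 to 5 S phase members below 0, and a mitosis median of −0.34 to −0.146. The cause of these shifts was not tested. Without the replicate block 0 members were called on either design, as with it, and medians did not move (S phase −0.079 and −0.101). Of the results recomputed without it, the block changed the call of 1, 1416031_s_at of Mcm7 (adjusted p = 0.0941 without it).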
